A study of Mus musculus with 11 samples.

Results

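The MHC class II genes described here are Cd74, H2-Aa, H2-Ab1, H2-Eb1, H2-DMa, H2-DMb1 and Ciita, 7 of the 25827 genes in the files, chosen by their symbols. They were followed in single-nucleus RNA-seq (snRNA-seq) of DNA-stained, sorted nuclei from male mice aged 8 to 12 weeks, taken from the cervical spinal cord and, on 1 side of the brain, the cerebellum and brainstem. All mice carried Il12rb2fl/fl, a floxed gene for a chain of the interleukin-12 receptor. Mice labelled NestinCre/+Il12rb2fl/fl also carried Cre driven by the Nestin promoter, used in neural stem cells, which give rise to neurons, astrocytes and oligodendrocytes. Microglia and leukocytes come from other precursors, outside the lineage in which this Cre is expected to act. Experimental autoimmune encephalomyelitis (EAE) was induced with a MOG peptide in complete Freund's adjuvant and pertussis toxin, and mice were studied at day 10. There were 4 Il12rb2fl/fl libraries with EAE (fl EAE), 4 NestinCre/+Il12rb2fl/fl libraries with EAE (NestinCre EAE), 2 non-immunized Il12rb2fl/fl libraries (fl naive) and 1 non-immunized NestinCre/+Il12rb2fl/fl library (NestinCre naive), which had no replicate. Sequencing was done in 3 runs. Replicates 1 to 3 of fl EAE and NestinCre EAE came from run 1, their replicate 4 from run 2 together with fl naive 2, and the remaining naive libraries, fl naive 3 and NestinCre naive 2, from run 3.

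MHC class II molecules present peptides from endosomes to CD4+ T cells. H2-Aa and H2-Ab1 encode the 2 chains of I-A, and H2-Eb1 encodes the beta chain of I-E. Cd74 encodes the invariant chain, which fills the groove until the molecule reaches the endosome. H2-DMa and H2-DMb1 encode the chains of H2-M, which exchanges the remnant of Cd74 for peptide. Ciita encodes the coactivator that switches these genes on. Dendritic cells, B cells and macrophages use them constitutively, and interferon-gamma can induce them in other cells through Ciita. In EAE, T cells meet myelin peptides on class II molecules at the borders of and inside the central nervous system (CNS).

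After filtering, 161166 nuclei remained, between 11716 and 18696 per library. Library totals were 40761007 to 86063464 unique molecular identifiers (UMIs). Il12rb2 itself was measured at 13.4 ± 2.51 CPM (counts per 1e6 UMIs, SD, n = 4) in fl EAE and 13.7 ± 4.27 CPM (n = 4) in NestinCre EAE. Where the UMIs lie relative to the floxed part is not known here, so this does not check the deletion. No pair of libraries shared more than 0.692% of the barcodes of the smaller one. Nuclei were named from markers that held no class II gene, and 6.02% stayed unnamed.

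The promoter letters of 3 members are shown because the class II genes are switched on together through the conserved X and Y boxes. The sequences are RefSeq's (GRCm38.p6), run 5′ to 3′ on the strand of the gene and cover the 120 bases before the start. Capitals mark the letters searched on both strands, TGATTGG for the Y box and TAGNAAC for part of the X box, 2 motifs that do not overlap here.
H2-DMb1 (chr17:34153071-34153190, + strand): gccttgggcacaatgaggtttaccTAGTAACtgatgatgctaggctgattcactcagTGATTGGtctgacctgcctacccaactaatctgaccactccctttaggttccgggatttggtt
H2-Aa (chr17:34287824-34287943, - strand): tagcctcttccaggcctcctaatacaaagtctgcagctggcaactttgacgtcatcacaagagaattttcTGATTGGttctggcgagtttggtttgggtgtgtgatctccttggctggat
H2-Eb1 (chr17:34305747-34305866, + strand): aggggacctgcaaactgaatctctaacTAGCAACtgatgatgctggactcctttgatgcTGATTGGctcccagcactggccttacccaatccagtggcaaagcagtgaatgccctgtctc
The Y box letters began 63, 50 and 61 bases before the start of H2-DMb1, H2-Aa and H2-Eb1. The X box letters began 96 bases before the start of H2-DMb1 and 93 bases before that of H2-Eb1. They were not found for H2-Aa, and other spellings of the X box were not searched. Neither motif was found in the windows of H2-DMa, which has 2 starts in that table. The windows searched ran from 250 bases before the start to 50 after it, longer than the sequences printed. Of 32851 such promoter windows, 7.82% held the Y box letters, 11.4% the X box letters and 0.938% both. A match is a match of letters, not a measured binding site.

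The genes lie on chromosome 17 except Cd74 on chromosome 18 and Ciita on chromosome 16. In the GENCODE annotation on GRCm39, the build of the files, H2-DMa spans chr17:34338515-34358958 (+) and overlaps Brd2 on the other strand. Ciita spans chr16:10297923-10347694 (+) and overlaps Dexi on the other strand. H2-Aa (chr17:34493404-34506798, -) overlaps H2-Eb1 (chr17:34504236-34535648, +) at their ends. All of these neighbours were counted too, and how far an overlap adds to the UMIs of a member was not tested.

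Dendritic cell-like nuclei held the most class II transcript. The genes Cd74, H2-Aa, H2-Ab1 and H2-Eb1 encode the invariant chain and 3 class II chains, whose surface protein was not measured in these libraries. Together these 4 genes were at 8207 ± 630 UMIs per 1000 nuclei (SD, n = 4 libraries) in the 46 dendritic cell-like nuclei of NestinCre EAE. Infiltrating phagocyte-like nuclei followed with 3125 ± 1006 (n = 4, 266 nuclei), border-associated macrophage-like nuclei with 2579 ± 534 (n = 4, 53 nuclei) and B cell-like nuclei with 1836 ± 1359 (n = 4, 68 nuclei). The ranges of these last 3 classes over libraries overlapped, while the lowest library of the dendritic cell-like nuclei (7556) was above the highest of the phagocyte-like nuclei (4457). T or NK cell-like nuclei were at 179 ± 156 (n = 4, 52 nuclei), a range that overlapped that of granule cells.

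**Figure D1:**
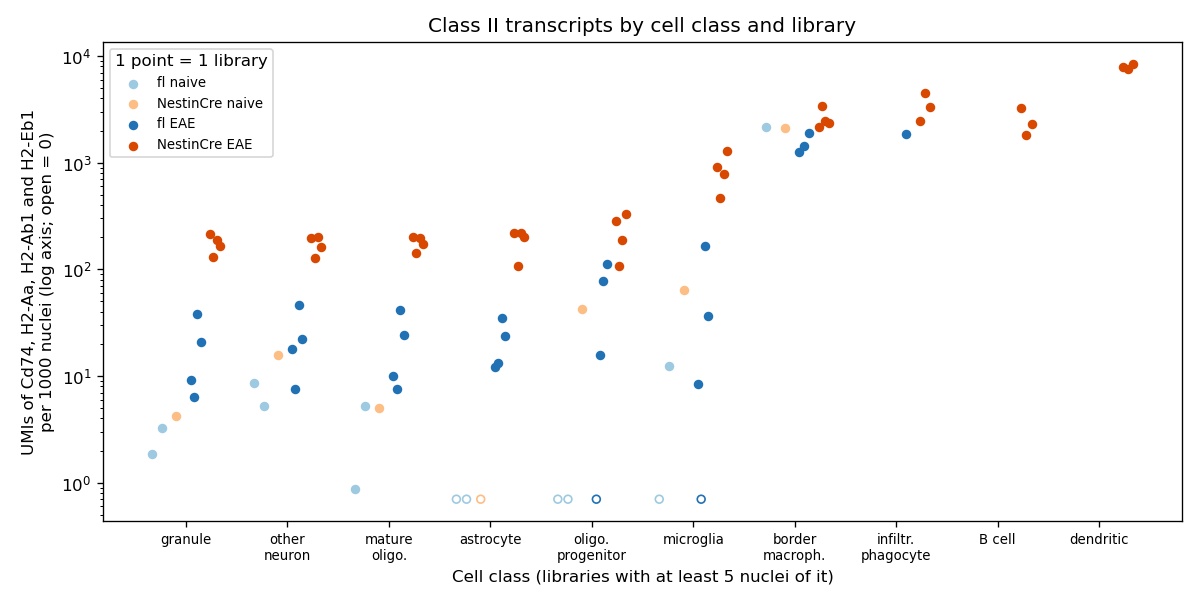
UMIs of Cd74, H2-Aa, H2-Ab1 and H2-Eb1 per 1000 nuclei (log axis) in 10 cell classes, 1 point per library with at least 5 nuclei of the class, coloured by group, open points at 0. In NestinCre EAE, granule cells, other neurons, mature oligodendrocytes and astrocytes lie at one level, and every point of microglia, border-associated macrophages, infiltrating phagocytes, B cells and dendritic cells lies above it.

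Border-associated macrophage-like nuclei held these 4 genes in non-immunized mice as well, at 2167 UMIs per 1000 nuclei in fl naive 2 (13 UMIs in 6 nuclei) and 2111 in NestinCre naive (19 UMIs in 9 nuclei), with 1 UMI in the 4 nuclei of fl naive 3. In fl EAE they were at 1709 ± 455 (n = 4, 30 nuclei). Summed over libraries and divided by all UMIs of the class, Cd74 in NestinCre EAE was 1.35 times fl EAE in this class, with a counting interval of 0.859 to 2.18. H2-Aa was at 1.40 times (0.580 to 3.73), H2-Ab1 at 2.87 times (1.07 to 9.65) and H2-Eb1 at 2.42 times (1.09 to 6.08), and H2-DMa, with 3 and 4 UMIs, at 0.831 times (0.141 to 5.67). Ciita, with 15 and 35 UMIs, was at 1.45 times (0.774 to 2.87), and H2-DMb1, with 2 and 9, at 2.81 times (0.581 to 26.7). These intervals, exact at the 95% level, cover counting error only. The fl EAE libraries held 4 to 11 nuclei of this class, under the minimum of 10 in 3 of them, so no test over mice was run. H2-Ab1 did not overlap between the EAE groups, at 0 to 272.7 UMIs per 1000 nuclei in fl EAE (5 UMIs in all) and 375 to 466.7 in NestinCre EAE. NestinCre naive was higher still, at 666.7 (6 UMIs in 9 nuclei). Cd74, H2-Aa, H2-Eb1, H2-DMa, H2-DMb1 and Ciita overlapped. The share of all genes without overlap in this class is not given, so this is not read as a result about H2-Ab1.

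Infiltrating phagocyte-like, dendritic cell-like and B cell-like nuclei were nearly absent from fl EAE, with 11, 1 and 2 nuclei against 266, 46 and 68 in NestinCre EAE, so their class II levels could not be compared between genotypes. The nuclei of NestinCre EAE were themselves unevenly spread. Immune classes other than microglia made up 2.73%, 0.893%, 1.96% and 0.134% of nuclei in NestinCre EAE 1 to 4, and 0.0470% to 0.136% in fl EAE.

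Outside the immune classes, class II UMIs were few per nucleus but made up most of the total. In NestinCre EAE, 12333 UMIs of the 4 genes were counted. Immune classes, microglia included, held 20.7% of these in 3.10% of nuclei, granule cells 53.7% in 67.2% of nuclei and mature oligodendrocytes 11.2% in 13.6% of nuclei. By library, 74.3% to 83.4% of the UMIs lay outside the immune classes in NestinCre EAE, unnamed nuclei included, and 89.1% to 92.9% in fl EAE. Granule cells are excitatory neurons that are not known to express class II genes, and they served as the reference level of each library. In granule cells of fl EAE, H2-DMa and Ciita gave 853 and 634 of the 2253 UMIs of the 7 genes, and how much of this was free RNA was not tested.

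Mature oligodendrocytes held class II UMIs at nearly the level of granule cells of the same library. Per 1000 mature oligodendrocyte nuclei, fl EAE 1 to 4 held 10.1, 7.49, 41.3 and 24.1 UMIs of the 4 genes, while granule cells held 9.21, 6.35, 38.1 and 20.8. In NestinCre EAE 1 to 4 the values were 200.7, 143.7, 197.4 and 174.5 in mature oligodendrocytes and 215.6, 130.0, 190.3 and 165.8 in granule cells. The ratio of the 2 classes stayed between 0.931 and 1.18 in the 8 EAE libraries, with a median of 1.09, while the level in mature oligodendrocytes ran from 7.49 to 200.7. In both classes the genotypes did not overlap, with NestinCre EAE above fl EAE. The sum over all 7 genes was 134.5 in mature oligodendrocytes and 138.1 in granule cells, a difference of -3.65 ± 12.1 UMIs per 1000 nuclei (SD, n = 8), and the class was above granule cells in 3 of 8 libraries (exact two-sided sign-flip permutation test, p = 0.422, adjusted over 5 classes p = 0.422). For the 4 genes alone, a sum chosen after the levels had been seen, the difference was 2.90 ± 8.42, and mature oligodendrocytes were above granule cells in 7 of 8 libraries (exact sign-flip permutation, p = 0.367). Among the other members, Ciita was lower in mature oligodendrocytes, with a difference of -7.27 UMIs per 1000 nuclei.

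**Figure D2:**
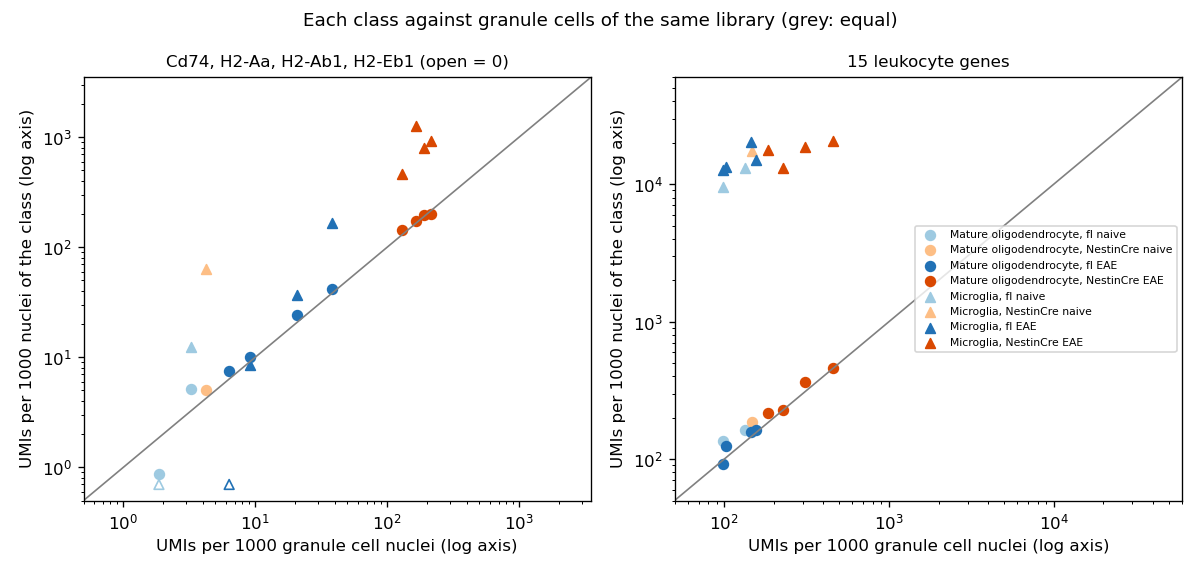
UMIs per 1000 nuclei (both axes log) of mature oligodendrocytes (circles) and microglia (triangles) against granule cells of the same library, 1 point per library, for Cd74, H2-Aa, H2-Ab1 and H2-Eb1 together (left) and a list of 15 leukocyte genes (right), with a grey line where both are equal and open points at 0. For the class II genes mature oligodendrocytes follow the line and microglia of NestinCre EAE lie above it, while for the leukocyte genes microglia of every library lie above it.

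The difference between mature oligodendrocytes and granule cells was -8.95 ± 5.74 UMIs per 1000 nuclei for the 7 genes in fl EAE (SD, n = 4) and 1.66 ± 15.3 in NestinCre EAE (n = 4). The genotypes differed by 10.6 (exact two-sided permutation test over 70 assignments, p = 0.257; smallest possible p = 0.0286), and by 8.27 within run 1. Without NestinCre EAE 1 the difference was 18.1, the largest with any 1 library left out (exact permutation p = 0.0286, the smallest possible). For Cd74 and the 3 chains it was 1.54 (exact permutation p = 0.857).

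A list of 15 leukocyte genes (among them Ptprc, Tyrobp, Laptm5 and Spi1) was summed as a measure of immune RNA in the other classes. In mature oligodendrocytes it was 0.929 to 1.21 times the granule cell level in the 8 EAE libraries, above it in 7 of 8 (exact sign-flip permutation, adjusted p = 0.0488). In granule cells the list was at 98.9 to 155 UMIs per 1000 nuclei in fl EAE and at 184 to 459 in NestinCre EAE, with means of 125.7 and 294.7 and no overlap, where the means of the 4 class II genes were 18.6 and 175.4. In other neurons the list overlapped between genotypes, with means of 700.8 and 803.4. The part of immune RNA in the class II difference was not tested. Of its genes, 11 of 15 were called higher in NestinCre EAE in granule cells (1.72% of all genes), 6 of 9 tested in mature oligodendrocytes (1.42%) and 0 of 10 in other neurons (0.12%) by edgeR. In microglia 1 of 14 was called higher (4.52% of all genes) and 1 lower. Tyrobp rose in granule cells with a log2 fold change of 2.52 ± 0.20 (SE, edgeR adjusted p = 0.00378) and in mature oligodendrocytes with 2.79 ± 0.34 (adjusted p = 0.00246). Some list genes have a level of their own in these classes. Apbb1ip was at 29.2 CPM in mature oligodendrocytes and 1.62 CPM in granule cells, and Plek at 12.0 and 26.9 CPM. The part of free RNA in the class II UMIs of any single nucleus was not tested.

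The number of UMIs in a nucleus separated the classes further. In NestinCre EAE, 15.2% of granule cell nuclei held at least 1 UMI of Cd74, H2-Aa, H2-Ab1 or H2-Eb1, and 0.187% held 3 or more. The share with at least 1 was 15.6% in mature oligodendrocytes and 46.3% in microglia, at median depths of 2018, 2002 and 2133 UMIs for the 3 classes, and 8.05%, 8.17% and 27.2% after thinning each nucleus to 1000 UMIs. In mature oligodendrocytes 0.218% of nuclei (17 of 7807) held 3 or more, and no nucleus held over 4. The share with 3 or more was 11.4% in microglia, 34.2% in infiltrating phagocyte-like, 38.2% in B cell-like, 43.4% in border-associated macrophage-like and 78.3% in dendritic cell-like nuclei. Among nuclei with any UMI, 11.7% to 11.8% had 2 or more in mature oligodendrocytes and granule cells, against 47.1% in microglia.

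**Figure D3:**
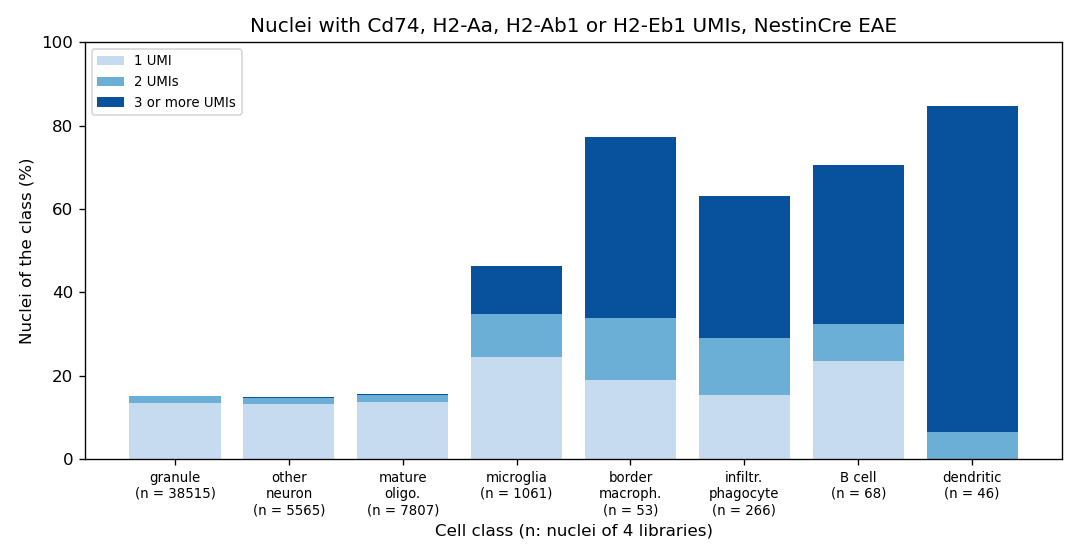
Share of nuclei (%) with 1, 2 or 3 and more UMIs of Cd74, H2-Aa, H2-Ab1 and H2-Eb1 in 8 cell classes, all nuclei of the 4 NestinCre EAE libraries together. Granule cells, other neurons and mature oligodendrocytes show nearly the same bars, with 0.187% to 0.218% of nuclei at 3 or more UMIs, and the share at 3 or more rises to 78.3% in dendritic cell-like nuclei.

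Within NestinCre EAE, the shares of the 4 genes in their summed UMIs were compared between classes. Cd74 gave 45.0% of their UMIs in granule cells, 47.4% in mature oligodendrocytes, 50.4% in microglia and 47.2% in infiltrating phagocyte-like nuclei, but 37.5% in dendritic cell-like nuclei. H2-Eb1 gave 24.5% in dendritic cell-like nuclei and 15.3% in granule cells. Exact 95% intervals of these last 2 shares, 20.2% to 29.2% and 14.4% to 16.1%, did not overlap, nor did that of microglia (17.7% to 22.7%) overlap that of granule cells. H2-Ab1 gave 20.3% in granule cells (19.35% to 21.3%) and 16.4% in mature oligodendrocytes (14.5% to 18.5%), and these intervals did not overlap either. The intervals take the UMIs pooled over 4 libraries and cover counting error only, so the shares were not tested over mice.

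Microglia of NestinCre EAE were above the granule cells of their own library. For the 7 genes, microglia were at 42.4, 68.6, 341 and 119 UMIs per 1000 nuclei in fl EAE 1 to 4, and at 1637, 835, 1287 and 1905 in NestinCre EAE 1 to 4. The groups did not overlap, and fl EAE 3 was the highest of its group. The excess over granule cells was 641 ± 663 (SD, n = 8) and was positive in 8 of 8 libraries (exact two-sided sign-flip permutation test, p = 0.00781, the smallest it can give; adjusted p = 0.0195). Against other neurons in place of granule cells it was 519 and lost its call (exact sign-flip adjusted p = 0.125). Per 1000 nuclei the fl EAE mean of microglia, 142.8, was below that of other neurons, 186.2. In CPM the order was the other way, at 69.0 (25.67 to 166.0) in microglia and 24.61 (22.81 to 26.98) in other neurons of fl EAE. Against granule cells the excess per 1000 nuclei was 87.8 ± 122 in fl EAE (n = 4) and 1195 ± 441 in NestinCre EAE (n = 4). The difference was 1107 (exact permutation test, p = 0.0286, the smallest possible) and 929 within run 1. Leaving out any 1 fl EAE library kept the difference between 1078 and 1167 but raised the exact permutation p to 0.0571. Over all 8 libraries, the excess of the 4 genes alone was 360 ± 409, positive in 6 of 8 libraries, and did not pass the correction (exact sign-flip adjusted p = 0.156). Its genotype difference was 652, with no overlap (exact permutation p = 0.0286, the smallest possible). The sum of the 4 genes was chosen after the levels had been seen, so this p-value is a description only.

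Members were tested one by one in microglia with edgeR's quasi-likelihood test on UMIs summed per library, with sequencing run as a term and Benjamini-Hochberg adjustment over all genes of the class. Of 6 members tested, 5 were called higher in NestinCre EAE and 0 lower, where 4.52% of all genes tested in microglia were called higher. Cd74 had 1, 0, 27 and 1 UMIs in microglia of fl EAE 1 to 4, against 91, 50, 97 and 278 UMIs in NestinCre EAE 1 to 4, a log2 fold change of 2.91 ± 0.44 (SE, adjusted p = 0.000172). Nearly all fl EAE counts came from 1 library, and without fl EAE 3 the log2 fold change was 5.93. H2-Ab1 rose by 3.10 ± 0.51 on the log2 scale (adjusted p = 0.000434), from 6 to 132 UMIs, and by 4.87 without fl EAE 3. H2-Eb1 rose by 3.71 ± 0.48 (adjusted p = 3.17e-05), from 6 to 206 UMIs.

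H2-Aa had 0, 0, 1 and 0 UMIs in microglia of fl EAE 1 to 4, against 35, 7, 27 and 101 UMIs in NestinCre EAE 1 to 4. It missed the filter on low counts. Divided by all UMIs of the class in each group, the ratio was 74.4, with a counting interval of 13.2 to 2955. With no filter it was called too, at a log2 fold change of 5.68 ± 0.65 (edgeR adjusted p = 1.45e-15).

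Ciita, the switch of the class, was called in microglia and in no other class tested. In oligodendrocyte progenitors Ciita missed the filter on low counts, with 1 UMI in fl EAE and 15 in NestinCre EAE. There it was at 0 to 4.817 CPM in fl EAE, 4.825 to 18.69 in NestinCre EAE and 4.817 to 17.48 in fl naive. With no filter its log2 fold change in progenitors was 3.40 ± 1.03 (SE, edgeR adjusted p = 0.150). It had 1, 1, 8 and 0 UMIs in microglia of fl EAE 1 to 4, 83, 40, 62 and 173 in NestinCre EAE 1 to 4, and 0, 1 and 2 in the 3 naive libraries. Microglia of every NestinCre EAE library were above every other library. The log2 fold change was 3.90 ± 0.39 (SE, edgeR adjusted p = 1.93e-06), from 7.06 ± 7.39 to 133 ± 20.1 CPM (SD, n = 4 each), and in fl EAE only fl EAE 3 held more than 1 UMI. The share of microglial nuclei with a Ciita UMI was 20.6% in NestinCre EAE and 1.09% in fl EAE, and in granule cells 1.20% and 1.46%. After thinning to 1000 UMIs it was 10.1% and 0.584% in microglia and 0.542% and 0.577% in granule cells.

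H2-DMb1 had a level of its own in microglia without immunization, at 16.8 and 38.8 CPM in the fl naive libraries and 54.0 CPM in the NestinCre naive library. In fl EAE 1 to 4 it was at 5.13, 16.9, 34.9 and 10.4 CPM and in NestinCre EAE 1 to 4 at 69.7, 46.2, 63.7 and 68.3 CPM. NestinCre EAE was above every fl EAE library but overlapped the naive range, and the log2 fold change between genotypes in EAE was 1.69 ± 0.37 (SE, edgeR adjusted p = 0.00581), or 2.55 without fl EAE 3. H2-DMa, its partner chain, had a log2 fold change of 0.64 ± 0.36 in microglia (edgeR adjusted p = 0.400), with overlapping groups.

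Microglia fell into 5 clusters, numbered 35, 45, 55, 58 and 68, which class II genes did not help to define. Most fl EAE microglia lay in clusters 35 and 45, and most NestinCre EAE microglia in clusters 55, 68 and 35, so Cd74 was compared within clusters, as pooled values with no test. In cluster 35, Cd74 was at 471 UMIs per 1000 nuclei in NestinCre EAE and 8.73 in fl EAE, and in cluster 45 at 572 and 24.8. Cluster 55 held 248 in NestinCre EAE and 0 UMIs in the 13 nuclei of fl EAE. In cluster 68 it was at 958 and 568, where fl EAE rested on 21 UMIs in 37 nuclei. Of the 29 Cd74 UMIs in fl EAE microglia, 27 came from fl EAE 3.

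**Figure D4:**
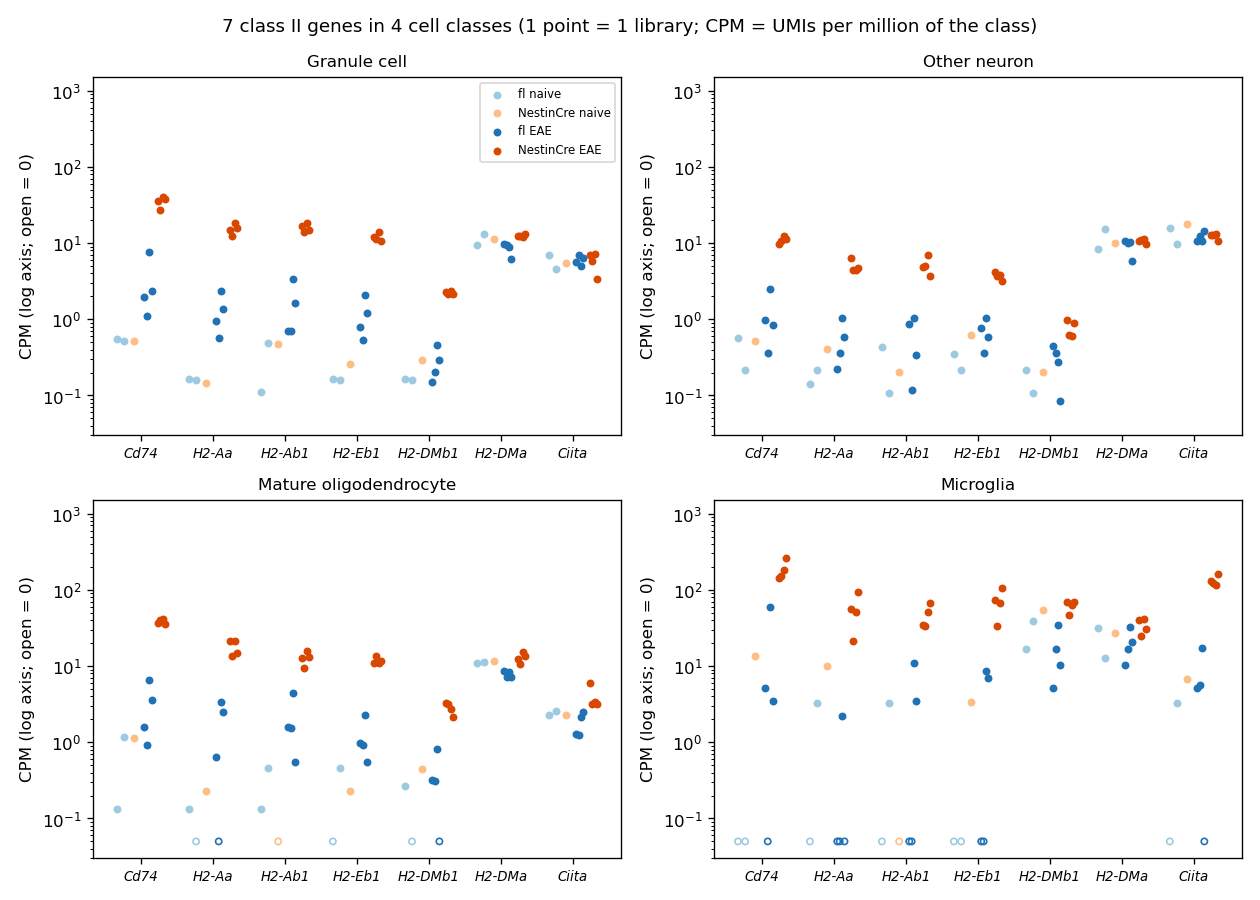
CPM (UMIs of the gene per 1e6 UMIs of the class, log axis) of the 7 class II genes in granule cells, other neurons, mature oligodendrocytes and microglia, 1 point per library, coloured by group, open points at 0. Cd74, H2-Aa, H2-Ab1 and H2-Eb1 are higher in NestinCre EAE than in fl EAE in all 4 panels. The groups overlap for Ciita in granule cells and other neurons, and Ciita separates the EAE genotypes in mature oligodendrocytes and in microglia.

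The summed counts per class were called for most members in the other classes too, including those near the granule cell level. Across all nuclei 6 of 7 members were called higher in NestinCre EAE (3.09% of all genes), and in granule cells 5 of 7 (1.72%). In other neurons 4 of 6 were called (0.12%) and in mature oligodendrocytes 4 of 6 (1.42%). In astrocytes (0.61% of genes called higher) and oligodendrocyte progenitors (0.49%) no member passed the filter on low counts. The median log2 fold change of the members tested was 3.32 in all nuclei, 3.29 in granule cells, 2.68 in other neurons, 2.84 in mature oligodendrocytes and 3.01 in microglia, while the median of all genes stayed between -0.02 and 0.01. Over these 7 sums, 32 of 49 pairs of a member and a sum were tested, 24 were called higher and 0 lower, and the adjusted p-values ran from 1.93e-06 to 1.00. These calls compare libraries and do not separate RNA made in a nucleus from free RNA. Without fl EAE 1 all 4 calls in other neurons were lost (edgeR adjusted p = 0.0685), with log2 fold changes of 2.35 to 3.12.

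The log2 fold change of Cd74 was 3.45 ± 0.44 in granule cells, 3.11 ± 0.35 in other neurons and 3.40 ± 0.32 in mature oligodendrocytes (SE, edgeR adjusted p = 0.00609, 0.00882 and 0.000894). That of H2-Aa was 3.54 ± 0.32, 3.02 ± 0.35 and 3.18 ± 0.45 in the same order, with NestinCre EAE above fl EAE in 4 of 4 libraries in each class. H2-Eb1 was between 2.35 and 3.35 in the 3 classes and H2-Ab1 between 2.52 and 3.29. H2-DMb1 was tested in granule cells, where it rose by 2.94 ± 0.30 on the log2 scale (edgeR adjusted p = 0.00378) from 29 to 188 UMIs in all.

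**Figure D5:**
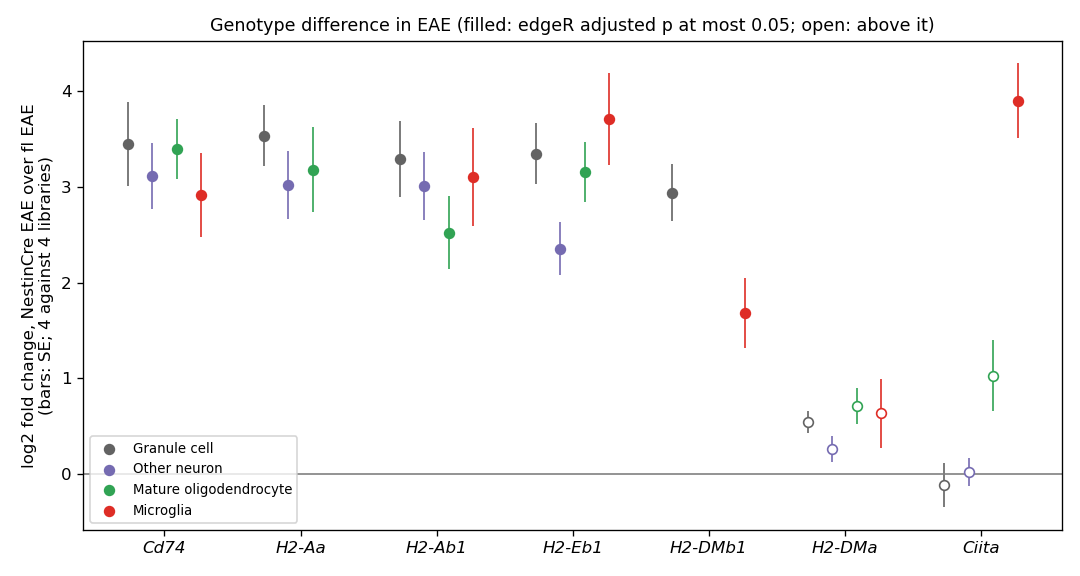
log2 fold change of each class II gene, NestinCre EAE over fl EAE (4 against 4 libraries), in 4 cell classes, with bars for the SE, filled points at an edgeR adjusted p of at most 0.05 and open points above it. The 4 genes on the left lie between 2.35 and 3.71, H2-DMa between 0.26 and 0.71, and Ciita is filled in microglia alone.

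H2-DMa and Ciita had a level in neurons in every group, naive mice included. That of H2-DMa was not particular to neurons. In fl EAE its mean was 8.598 CPM in granule cells, 9.178 in other neurons and 7.859 in mature oligodendrocytes. In NestinCre EAE the means were 12.44, 10.68 and 12.89 CPM in the same order. In granule cells Ciita was at 5.63, 7.07, 5.07 and 6.34 CPM in fl EAE 1 to 4, at 7.03, 5.81, 7.16 and 3.33 CPM in NestinCre EAE 1 to 4, and at 6.92, 4.53 and 5.47 CPM in the naive libraries. The groups overlapped, and the log2 fold change between genotypes in EAE was -0.12 ± 0.23 (SE, edgeR adjusted p = 0.938). By neuron type, Ciita was at 12.1 ± 1.33 CPM in molecular layer interneurons (SD, n = 8 EAE libraries) and 13.3 ± 2.82 in inhibitory neurons, against 5.93 ± 1.30 in granule cells. The lowest library of the interneurons (10.1) was above the highest of the granule cells (7.16).

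In mature oligodendrocytes Ciita was lower than in granule cells. It was at 6.80 against 14.1 UMIs per 1000 nuclei over the 8 EAE libraries, a difference of -7.27 ± 4.17 (SD, exact sign-flip permutation p = 0.0156, adjusted over 5 classes p = 0.0391), with 1 of 8 libraries above its granule cells. The log2 fold change between genotypes in mature oligodendrocytes was 1.03 ± 0.37 (SE, edgeR adjusted p = 0.326), from 30 UMIs in fl EAE to 64 in NestinCre EAE. Per 1000 nuclei the groups overlapped, at 2.68 to 8.34 in fl EAE and 5.96 to 14.7 in NestinCre EAE, and in CPM they did not, at 1.23 to 2.49 and 3.16 to 5.93. Ciita was high in the classes with the most Cd74. In NestinCre EAE it was at 982 ± 246 CPM in dendritic cell-like nuclei (SD, n = 4), 462 ± 146 in infiltrating phagocyte-like nuclei and 272 ± 158 in border-associated macrophage-like nuclei.

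H2-DMa in granule cells was at 9.83, 9.48, 8.98 and 6.10 CPM in fl EAE 1 to 4 and at 12.4, 12.3, 12.0 and 13.1 CPM in NestinCre EAE 1 to 4, with the naive libraries between 9.41 and 13.3 CPM. The EAE groups did not overlap, but the naive libraries spanned both. The log2 fold change was 0.54 ± 0.12 in granule cells (SE, edgeR adjusted p = 0.0568) and 0.49 ± 0.10 across all nuclei (adjusted p = 0.0314), a call lost without any 1 of 7 of the 8 libraries (adjusted p up to 0.0984). The 7-gene sum of other neurons was 123 ± 23.2 UMIs per 1000 nuclei above granule cells (n = 8, exact sign-flip adjusted p = 0.0195). Of this, Ciita gave 75.1 and H2-DMa 46.2. In CPM the difference was -24.0. In oligodendrocyte progenitors the 7-gene sum was 78.0 ± 87.5 above granule cells per 1000 nuclei (n = 8, exact sign-flip adjusted p = 0.0391) but -7.36 in CPM. In astrocytes it was 10.1 ± 19.9 above per 1000 nuclei (exact sign-flip adjusted p = 0.254). In CPM astrocytes were below granule cells, with means of 48.1 and 60.6.

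Other genes of the pathway were counted from lists chosen with earlier results known. Of 6 endosomal processing genes, 3 were called higher in NestinCre EAE in all nuclei (3.09% of all genes), 2 in granule cells (1.72%) and 2 in microglia (4.52%). In other neurons 1 was called (0.12%) and in mature oligodendrocytes 1 (1.42%). In astrocytes it was 0 of 4 tested (0.61%) and in progenitors 0 of 3 (0.49%). Ctss, the cathepsin that trims Cd74, was called higher in all nuclei and in 4 of the 6 classes. In microglia it was at 755 ± 134 CPM in fl EAE and 1178 ± 125 in NestinCre EAE (SD, n = 4 each, log2 fold change 0.64, edgeR adjusted p = 0.00937). In granule cells Ctss was at 4.23 ± 2.27 and 29.7 ± 4.96 CPM, and in mature oligodendrocytes at 4.42 ± 2.82 and 33.4 ± 6.80. Ifi30, a thiol reductase of the endosome, rose in microglia from 17.6 ± 11.1 to 56.4 ± 9.97 CPM (adjusted p = 0.0108). Of 5 further class II chains and chaperones, 3 were tested across all nuclei and H2-Oa, a chain of the H2-M inhibitor, was called higher (log2 fold change 3.95, adjusted p = 0.00792). Of 3 costimulation genes, 2 were called higher across all nuclei (3.09% of all genes), 1 of 2 tested in granule cells (1.72%), 1 of 2 tested in microglia (4.52%) and 0 of 1 in other neurons (0.12%). In microglia this was Cd86 (312 ± 12.3 to 446 ± 54.6 CPM, edgeR adjusted p = 0.0338), while Cd80 was at 48.2 ± 32.8 and 24.6 ± 7.35 CPM (adjusted p = 0.401).

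Of 6 genes of the interferon-gamma pathway, the transcription factor Irf1 and the feedback inhibitor Socs1 were called higher by edgeR in microglia (4.52% of all genes), in mature oligodendrocytes (1.42%) and in granule cells (1.72%), and 0 of 6 in other neurons (0.12%). In mature oligodendrocytes Irf1 was at 1.91 ± 3.42 CPM in fl EAE and 28.7 ± 3.54 in NestinCre EAE (SD, n = 4 each, edgeR adjusted p = 0.00713). None of the 7 genes of the transcription complex that binds the X and Y boxes (Rfx5, Rfxap, Rfxank, Nfya, Nfyb, Nfyc and Creb1) and neither turnover gene was called by edgeR in any class where they passed the filter, where 0.12% to 4.52% of all genes were called higher. At such shares a count of 0 among so few genes says nothing particular to them.

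The genes whose levels were most like those of H2-Aa, H2-Ab1 and H2-Eb1 summed, by Pearson r of log2(CPM + 1) over 68 sums of a library and a class (8 classes, 16670 genes considered), were Cxcl9 (r = 0.877), Iigp1 (0.876), Ifi27l2a (0.871), Ly6a (0.859) and Cxcl10 (0.857). The sums share libraries and depth, so these are descriptions. Among the members Cd74 was at 0.959, H2-DMb1 at 0.597, Ciita at 0.582 and H2-DMa at 0.324.

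What immunization changed in each genotype was asked by setting EAE against naive libraries. In granule cells the 4 genes were at 1.86 and 3.26 UMIs per 1000 nuclei in the fl naive libraries, 4.21 in NestinCre naive, 6.35 to 38.1 in fl EAE and 130.0 to 215.6 in NestinCre EAE. Naive libraries were thus below every EAE library. Within run 2, granule cells held 20.8 in fl EAE 4 and 1.86 in fl naive 2. In microglia the naive values were 0 and 12.3 in fl naive and 63.5 in NestinCre naive (8 UMIs in 126 nuclei, 7 of them in a single nucleus), within the range of fl EAE (0 to 166).

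No member was called between EAE and naive in any of the 7 sums, in fl mice (0 of 35, edgeR, median log2 fold change 1.99) or in NestinCre mice (0 of 35, 3.98). In fl mice the share of all genes called in either direction was 0.00586% in granule cells, 0.00606% in other neurons, 0.683% in mature oligodendrocytes, 0.366% in astrocytes and 0.149% in oligodendrocyte progenitors, and 0% in microglia and in all nuclei. In NestinCre mice it was 0.22% in mature oligodendrocytes, 0.364% in microglia, 0.0297% in oligodendrocyte progenitors and 0% in the other sums. At an unadjusted p under 0.05 there were 15 and 16 of 35 members, and DESeq2 called 0 and 4. Without the run term edgeR called 9 in NestinCre mice. The shares of all genes at these looser criteria are not given, here or for the comparisons below. The sum over all nuclei also contains the classes, so these counts are not read as a result about the members. EAE and naive libraries share only run 2, where the naive library is fl naive 2, which limits this comparison. The NestinCre naive library shares no run with any EAE library. The comparison in NestinCre mice and the interaction therefore rest on a run term fitted from other libraries. Between the genotypes in naive mice (0 of 35, 1 at an unadjusted p under 0.05) and for the interaction of genotype and EAE (0 of 35, 10 at an unadjusted p under 0.05) none was called by edgeR or DESeq2, where 0% of all genes were called in each sum, so that the genotype difference was not shown to be larger in EAE than in naive mice.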

How the data were processed

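Single-nucleus RNA-seq was analysed from 11 libraries. The deposited matrices hold UMI counts per gene and barcode with no normalization, which the authors made by alignment to GRCm39 with introns counted. Cell Ranger 7.0.0 was used for run 1 and 6.0.2 for runs 2 and 3, per the file headers. Of 189709 barcodes (13120 to 22951 per library), those with at least 200 genes in run 1 or 500 in runs 2 and 3 and under 5% mitochondrial UMIs were kept, after the study's limits. The study's limit of under 6000 UMIs was not applied here and was run as an alternative. The highest Scrublet-type doublet scores (0.8% per 1000 barcodes) and 25 clusters with over 85% of such nuclei were left out. The 85% was set after the shares had been seen. Nuclei were clustered (3000 variable genes without class II genes, 40 components, 20 neighbours, Leiden resolutions 2 and 6, leidenalg 0.10.2), and leukocytes other than microglia once more (1500 genes, 20 components). Of 147 clusters, 94 were named from 26 lists of markers: at least 20 nuclei and 3 markers at 20 CPM and 2 times the median cluster.

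UMIs were summed per library and class. Classes with at least 10 nuclei in each library went into edgeR's quasi-likelihood test (version 4.0.16, R 4.3.3) after filterByExpr and TMM scaling, in a fit of the 8 EAE libraries with run and genotype and one of all 11 with run and group, in which the lone NestinCre naive library is assumed to vary like the others. The threshold was an adjusted p of 0.05 (Benjamini-Hochberg within a class). DESeq2 1.42.0 was an alternative. Excess over granule cells was tested by exact permutation in scipy 1.17.1. The labels do not give litters, so p-values measure the spread between these mice. The named genes are the 7 members and any list gene called in the genotype comparison in EAE or needed beside a member, plus the 5 genes of most like pattern. One listed gene is not reported here. Scripts were tested on simulated data. The members and lists were chosen with earlier results of these data known. Whether replicate numbers pair the mice was checked by correlating the deviations of EAE libraries. Same-numbered libraries correlated at -0.06, 0.34 and 0.31, and differently numbered ones at -0.358 to 0.085. The values 0.34 and 0.31 were above every differently numbered pair and -0.06 was not, so the check does not decide on pairing. Libraries were not treated as pairs, and the permutation tests between genotypes used neither replicate number nor run. A count of 0 over a sum was compared through a floor of 3 counts.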

Additional observations from a re-analysis of the deposited data

Results flagged for a closer look

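Of 56 groups of 4 libraries looked at for a library far from the others, 5 held one. The limit used gives about 1 in 20 for normally distributed values. These are low counts from shared libraries, and a group with UMIs in only 1 library is always flagged. The rates can therefore not be compared. Of the 5 values, 4 came from fl EAE 3. In microglia of this library Cd74 was at 121 UMIs per 1000 nuclei, with the next fl EAE library at 9.17, and H2-Aa at 4.48 (1 UMI) with the others at 0. In its mature oligodendrocytes H2-Ab1 was at 10.9, with the next at 3.40, and H2-Eb1 at 5.67, with the next at 2.04. Granule cells of fl EAE 3 were also the highest of their group, at 38.1 UMIs of Cd74, H2-Aa, H2-Ab1 and H2-Eb1 per 1000 nuclei. In NestinCre EAE, Ciita in mature oligodendrocytes was highest in NestinCre EAE 1, at 14.7 UMIs per 1000 nuclei with the next library at 7.39.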

How the results depend on the processing

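The count of 24 member and class pairs called higher in NestinCre EAE stayed between 23 and 31 under the other settings and between 21 and 26 when 1 library was left out. With the replicate number as a block in place of run, H2-DMa across all nuclei lost its call (adjusted p = 0.0846). With no filter on low counts 3 members were called in astrocytes and 1 in progenitors. The shares of all genes called under this and the other alternative settings are not given, so these counts have no background beside them. Without fl EAE 1 none was called in other neurons, where the log2 fold changes of the 4 members that lost the call were 2.35 to 3.12. Between EAE and naive, the count of 0 became 2 in fl mice with no filter, and in NestinCre mice 4 with DESeq2, 9 with no run term and 1 with no filter. With other neurons as the reference in place of granule cells, the difference of mature oligodendrocytes was -126 per 1000 nuclei and passed the test. In CPM the order was the other way, with EAE means of 59.3 in mature oligodendrocytes and 36.7 in other neurons. From granule cells it was 2.90 per 1000 nuclei for the 4 genes alone, an alternative added after seeing the data. The excess of microglia was 519 against other neurons and 360 for the 4 genes, both past no threshold (exact permutation adjusted p = 0.125 and 0.156). Its genotype difference ran from 939 to 1284 with 1 library left out, with an exact permutation p of 0.0286 without a NestinCre EAE library and 0.0571 without an fl EAE library, and that of mature oligodendrocytes from 6.80 to 18.1. In CPM the excess turned to -12.5 in astrocytes, -7.36 in progenitors and -24.0 in other neurons. After thinning to 1000 UMIs it was -8.74, -8.91 and -23.1, and against other neurons -113 in astrocytes and -44.8 in progenitors. The Ciita fold change turned in granule cells to 0.20 in run 1 alone (leave-one-out -0.25 to 0.20). In other neurons it turned to -0.0043 with the highest doublet scores kept, -0.17 under 6000 UMIs and -0.12 without nuclei with leukocyte UMIs (leave-one-out -0.041 to 0.22). The cause of these changes was not tested. Leaving out nuclei with leukocyte UMIs gave no value for microglia, since none remained.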
